A study of Mus musculus with 2 samples.

Results

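The acute-phase proteins and the interleukin-6 (IL-6) axis were followed through 10 mouse genes: Saa3, Hp, Orm1, Orm2, Lbp, Ptx3, Il6, Il6ra, Il6st and Osm. Members were taken by gene name from a deposited table of 54751 gene rows, and all 10 were found there once. The set was chosen by biological theme with the ratios of the same 2 libraries in view, so every ratio between the libraries is a description and none is tested. The libraries were made from wild-type (WT) bone marrow-derived MDSCs, myeloid-derived suppressor cells, which are immature myeloid cells named for dampening T cell responses. Cells of the control library received vehicle and those of the other library received mrWNT2, in both cases on day 0 and day 3, and both were taken on day 6. WNT2 belongs to the secreted WNT family of ligands, and the series' title links it to MDSCs in colorectal cancer. The sources used here do not give the dose, the number of animals behind each culture or whether animals were pooled.

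Acute-phase proteins are secreted plasma and tissue proteins whose production climbs during infection or injury. The liver makes most of them, chiefly when IL-6 and interleukin-1 reach it, but Saa3, Hp, Lbp and Ptx3 are also made by myeloid cells. IL-6 binds its receptor alpha chain (Il6ra), and the pair engages the shared signalling chain gp130 (Il6st), which activates JAK kinases and the transcription factor STAT3. Oncostatin M (Osm) is a related ligand that signals through gp130 together with its own receptor chain.

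In the mrWNT2 library 4 of the 10 genes were at least 1.5-fold higher than in control, namely Saa3, Ptx3, Hp and Il6. Another 2 were at least 1.5-fold lower, Il6st and Orm2, although the interval of Orm2 included no difference. The remaining 4, Orm1, Lbp, Il6ra and Osm, lay within 1.5-fold. Beside them stand the 12856 genes whose mean level reached 1 CPM (the count per 1e6 counts of the adjusted library size): 7.62% of these were higher in mrWNT2 by 1.5-fold or more, and 7.02% lower. Past 2-fold, Saa3 and Ptx3 were higher and Il6st lower, beside 3.38% and 2.49% of the 12856 genes. All 10 members passed that minimum, and since the same contrast stood behind their choice, their count is not read against those shares. Each group had 1 library, so no difference has a replicate check, and intervals of 95% cover counting error only and compare these libraries rather than the conditions. In bulk RNA, fewer cells of a type and less RNA per cell cannot be told apart.

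Total counts were 13474453 for control and 12621110 for mrWNT2, and the median log2 ratio of all genes past the minimum was 0.02. Of the markers that define myeloid cells and granulocytes, Itgam, the CD11b gene, was at 495 and 477 CPM and the calprotectin gene S100a9 at 25349 and 22000 CPM in control and mrWNT2. All 5 myeloid markers were within 1.5-fold. Of 9 neutrophil markers 0 were at least 1.5-fold higher and 2 lower, Ly6g at 2.0-fold (173 and 86.3 CPM) and Ltf at 1.55-fold. Of 12 hepatocyte markers, 8 had 0 counts in both libraries, among them Alb, Ttr and Apoa1. The summed level of the 12 was 11.1 CPM in control and 11.2 CPM in mrWNT2, nearly all of it from the transferrin gene Trf. T cell and NK cell markers summed to at most 2.62 CPM and 0.393 CPM in either library. The measured markers of endothelium (2), B cells (2), mast cells and basophils (5) and eosinophils (4) were all within 1.5-fold, 0 of 4 erythroid markers were measured, and of 3 measured megakaryocyte markers Pf4 was 2.76-fold lower.

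**Figure D1:**
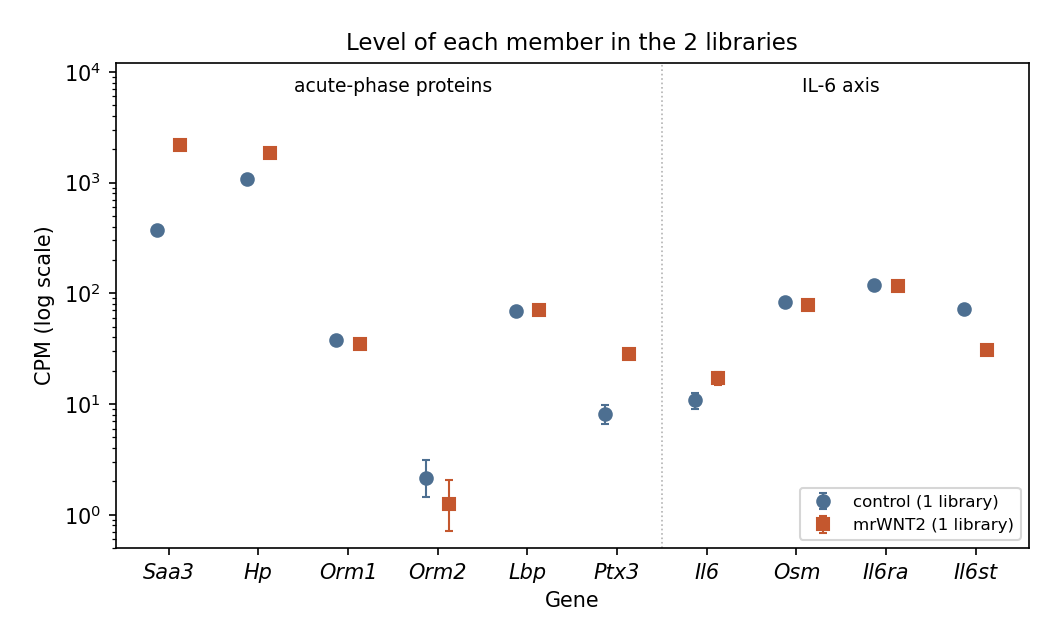
Level of each gene in the control library (circles) and the mrWNT2 library (squares), in CPM on a log scale, with exact Poisson 95% intervals that are often smaller than the symbol. Saa3, Hp, Ptx3 and Il6 sit higher in the mrWNT2 library and Il6st lower, while Orm1, Lbp, Osm and Il6ra nearly coincide.

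Promoter sequence is shown for Saa3, Ptx3, Il6 and Il6st, the genes at least 1.5-fold apart with an interval on 1 side of no difference for which the RefSeq promoter table (build GRCm38.p6) held an entry. Entries were found for 6 of the 10 members, the other two being Orm2 and Il6ra. Each stretch is the 250 bases before the RefSeq start, 5′ to 3′ on the gene's own strand. That start can differ from the deposited gene coordinates. The Saa3 window reaches into the gene as deposited (end 46715700), and the Ptx3 window stops short of it (start 66219910). Capitals mark matches, on either strand, to the C/EBP core TTGCNNAA or to the NF-kB consensus. C/EBP and NF-kB factors are known inducers of acute-phase and cytokine genes.
Saa3, chr7:46715677-46715926, minus strand: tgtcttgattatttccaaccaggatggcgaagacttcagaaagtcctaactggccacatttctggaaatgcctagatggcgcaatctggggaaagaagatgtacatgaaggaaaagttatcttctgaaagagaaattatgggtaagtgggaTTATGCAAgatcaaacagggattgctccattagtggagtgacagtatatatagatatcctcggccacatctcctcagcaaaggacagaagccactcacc
Ptx3, chr3:66219637-66219886, plus strand: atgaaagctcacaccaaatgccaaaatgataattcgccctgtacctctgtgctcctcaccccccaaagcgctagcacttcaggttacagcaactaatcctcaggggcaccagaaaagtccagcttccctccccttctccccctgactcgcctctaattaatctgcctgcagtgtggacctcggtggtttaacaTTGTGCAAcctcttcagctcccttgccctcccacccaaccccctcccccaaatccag
Il6, chr5:30012864-30013113, plus strand: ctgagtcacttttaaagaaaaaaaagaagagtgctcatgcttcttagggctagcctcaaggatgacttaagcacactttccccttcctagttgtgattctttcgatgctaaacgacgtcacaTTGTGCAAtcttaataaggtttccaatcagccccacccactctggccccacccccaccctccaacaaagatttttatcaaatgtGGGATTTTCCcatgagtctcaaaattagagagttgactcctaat
Il6st, chr13:112463820-112464069, plus strand: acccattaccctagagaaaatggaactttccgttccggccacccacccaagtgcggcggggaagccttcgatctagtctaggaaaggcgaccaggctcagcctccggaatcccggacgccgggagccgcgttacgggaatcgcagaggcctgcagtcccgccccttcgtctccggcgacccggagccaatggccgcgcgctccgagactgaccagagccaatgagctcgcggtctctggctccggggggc
A C/EBP core lay 99 to 92 bases before the RefSeq start of Saa3 and 57 to 50 bases before that of Ptx3. In Il6 a core lay 128 to 121 bases before the RefSeq start. Il6 also held an NF-kB consensus, 44 to 35 bases before its start, and the 2 matches did not overlap. Il6st held neither, and no member's window held the STAT palindrome TTCNNNGAA. Of the 6 members with an entry, 4 held a C/EBP core (Orm2 was the other one), against 9.56% of 32851 promoters of that length. The NF-kB consensus was in 7.25% of those promoters and the STAT palindrome in 7.02%. A match describes letters in the window and is not evidence of binding.

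Serum amyloid A3, encoded by Saa3, is an apolipoprotein-like acute-phase protein that in mice is made largely outside the liver. Saa3 (ENSMUSG00000040026, chromosome 7, 46711998 to 46715700, GRCm38, minus strand) had 4971 counts in control and 27524 in mrWNT2. Its level was 372 CPM (interval 361 to 382) in control and 2164 CPM (2139 to 2190) in mrWNT2. The ratio was 5.82 (5.65 to 6.0), the 82nd highest among the 12856 genes. It took 0.0369% of all control counts and 0.218% of mrWNT2 counts.

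Saa3 lies in a cluster of serum amyloid A genes, whose other members code for the liver-type proteins SAA1 and SAA2 and for SAA4. Saa1 had 1 count in control and 26 in mrWNT2, a ratio of 27.3 with a counting interval from 4.49 to 1121. Saa2 had 0 and 3 counts, and Saa4 and the pseudogene Saa-ps had 0 in both libraries. Almost all serum amyloid A counts in both libraries were thus those of Saa3. The next gene on the other side, Saal1, was 1.44-fold higher (1.14 to 1.83). The Saa3 transcript that GENCODE M21 numbers first (555 bases) was 82.9% identical to that of Saa1 over 508 aligned bases. Of its 50-base stretches, 1.78% also occurred in that Saa1 transcript. The rest of the deposited Saa3 length of 2606 bases was not compared, so the part of Saa3 reads that could be shared is not known. Saa1 had 26 counts in mrWNT2 beside 27524 for Saa3, and whether its counts came from shared reads was not tested.

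Haptoglobin, encoded by Hp, binds free haemoglobin in plasma and is also packed into neutrophil specific granules during maturation. Hp (ENSMUSG00000031722, chromosome 8, 109575128 to 109579172, minus strand) had 14453 counts in control and 23384 in mrWNT2, or 1081 CPM (1063 to 1099) and 1839 CPM (1815 to 1863). The mrWNT2 library was higher by 1.70-fold (1.67 to 1.74), rank 658 of the 12856 genes. Together Saa3 and Hp made up 78.3% of the counts of the 10 genes in control and 91.4% in mrWNT2. The balance between the pair differed as well: there were 0.344 Saa3 counts for each Hp count in control and 1.18 in mrWNT2, a 3.42-fold difference (log odds interval 3.30 to 3.55) that no library scaling can alter.

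None of the 14 genes listed as neutrophil specific granule genes was higher by as much as Hp. The list leaves out Ptx3, which was 3.52-fold higher. It also holds Ltb4r1, a leukotriene receptor gene, and Mmp9, whose product is mainly kept in other granules. Of these 14 genes, 4 were lower by 1.5-fold or more and 0 higher, with a median log2 ratio of -0.31. Mmp9, a gelatinase gene, was 1.98-fold lower, the lactoferrin gene Ltf 1.55-fold, Cd177 1.51-fold and Ceacam1 1.5-fold, the last pair falling short of 1.5-fold when libraries were scaled by their totals alone. Lcn2 was 1.22-fold higher, Cybb 1.21-fold and Lyz2 1.21-fold, each with an interval that excluded no difference. Camp, Ngp, Mmp8, Chil3 and Ltb4r1 were lower by less than 1.5-fold. Among 9 neutrophil markers, summed levels were 75947 CPM in control and 60317 CPM in mrWNT2, with 0 genes at least 1.5-fold higher and 2 lower, Ly6g (2.0-fold) and Ltf. Their part in the level of Hp was not tested.

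Orosomucoids, also called alpha-1-acid glycoproteins, carry drugs and lipids in plasma. Orm1 (chromosome 4, 63344560 to 63348163) had 508 counts in control and 444 in mrWNT2, which is 38.0 CPM (34.8 to 41.4) against 34.9 CPM (31.7 to 38.3). It was 1.09-fold lower with an interval from 0.956 to 1.24. Orm2 (chromosome 4, 63362449 to 63365878) was the most weakly expressed member, with 29 and 16 counts, at 2.17 CPM (1.45 to 3.11) and 1.26 CPM (0.719 to 2.04). It was 1.72-fold lower, with an interval from 0.906 to 3.40, so a difference was not detectable at this depth.

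The orosomucoid genes stand side by side and are close copies. Orm1 and Orm2 transcripts were 91% identical over 775 bases, and 20.4% of the 50-base stretches of each also occurred in the other. The sources used here do not say how reads with several matches were counted, so the split between these genes is uncertain. Orm3, the third copy, had 33 and 22 counts and was 1.43-fold lower (0.807 to 2.57). Summed, the 3 genes had 570 and 482 counts, 1.12-fold lower with an interval from 0.994 to 1.27.

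Lipopolysaccharide-binding protein, encoded by Lbp, passes bacterial endotoxin to CD14 and onward to TLR4. Lbp (chromosome 2, 158306493 to 158332852) had 920 counts in control and 903 in mrWNT2, at 68.8 CPM (64.4 to 73.4) and 71.0 CPM (66.5 to 75.8). The ratio was 1.03 (0.941 to 1.13), and the levels of the 2 libraries overlapped within counting error.

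Pentraxin 3, encoded by Ptx3, is a long pentraxin that binds microbes and complement components and is made where inflammation occurs rather than in the liver. Ptx3 (ENSMUSG00000027832, chromosome 3, 66219910 to 66225805) had 108 counts in control and 361 in mrWNT2. Its level was 8.08 CPM (6.62 to 9.75) in control and 28.4 CPM (25.5 to 31.5) in mrWNT2, a ratio of 3.52 (2.83 to 4.40) that ranked 142nd among the 12856 genes. Ptx3 counts per Lbp count were 0.117 in control and 0.40 in mrWNT2, which is 3.41-fold apart (2.70 to 4.30). Ptx3 lies within Veph1, a gene on the opposite strand, but Veph1 had only 0 counts in control and 1 in mrWNT2.

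Interleukin-6, the ligand that gives the axis its name, is a cytokine of macrophages, monocytes and stromal cells. Il6 (ENSMUSG00000025746, chromosome 5, 30013114 to 30019981) had 144 counts in control and 217 in mrWNT2, at 10.8 CPM (9.08 to 12.7) and 17.1 CPM (14.9 to 19.5). It was 1.58-fold higher with mrWNT2 (1.28 to 1.97), rank 812 of 12856. Osm, the oncostatin M gene (chromosome 11, 4236420 to 4241026), had 1122 and 1003 counts, at 83.9 CPM (79.1 to 89.0) and 78.9 CPM (74.1 to 83.9). It was 1.06-fold lower with an interval from 0.976 to 1.16. Il6 counts per Osm count were 0.128 in control and 0.216 in mrWNT2, a 1.69-fold difference (1.34 to 2.12).

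Of the receptor chains, Il6st was lower, while the interval of Il6ra included no difference. Il6ra, the ligand-binding chain (chromosome 3, 89864059 to 89913196), had 1598 counts in control and 1478 in mrWNT2, at 119 CPM (114 to 126) and 116 CPM (110 to 122). It was 1.03-fold lower with an interval from 0.957 to 1.10. Il6st (ENSMUSG00000021756, chromosome 13, 112464070 to 112510086), which encodes gp130, had 965 counts in control and 387 in mrWNT2. Its level was 72.2 CPM (67.7 to 76.9) in control and 30.4 CPM (27.5 to 33.6) in mrWNT2, 2.37-fold lower (2.11 to 2.67), and 176th from the bottom among the 12856 genes. Il6ra counts per Il6st count were 1.66 in control and 3.82 in mrWNT2, a 2.31-fold difference (2.01 to 2.65). Gene counts do not separate the membrane-bound from the soluble forms of either receptor. The antisense gene Gm42809, which overlaps the start of Il6ra, had 1 and 3 counts.

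Markers of cell types in which gp130, Il6 and Ptx3 are also found were followed beside these genes. Of 10 fibroblast and stromal markers, 6 were measured, 4 of them at least 1.5-fold lower (Col1a1, Col1a2, Bgn and Sparc) and 0 higher. The summed level of the 10 was 30.1 CPM in control and 13.4 CPM in mrWNT2. Col1a1, the most abundant, had 170 and 62 counts, while Lum had 0 counts in control and 1 in mrWNT2. Dcn, also under the minimum, went the other way with 2 and 15 counts, 7.89-fold higher (1.83 to 71.1). Of 13 macrophage markers, a list written after the values were seen, 12 were measured, 7 of them lower and 3 higher, among them Cd5l at 18.6-fold lower (215 and 11 counts), Marco at 8.67-fold higher, Vsig4 at 4.0-fold lower and Mrc1 at 3.07-fold lower. Their summed level was 2293 CPM in control and 2031 CPM in mrWNT2, and Timd4 was at 0 in both. Of 6 monocyte markers 3 were higher, Csf1r, Cd14 and Fn1, and 0 lower, with summed levels of 2851 and 3452 CPM. The part of these cell types in the levels of Il6st, Il6 and Ptx3 was not tested.

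**Figure D2:**
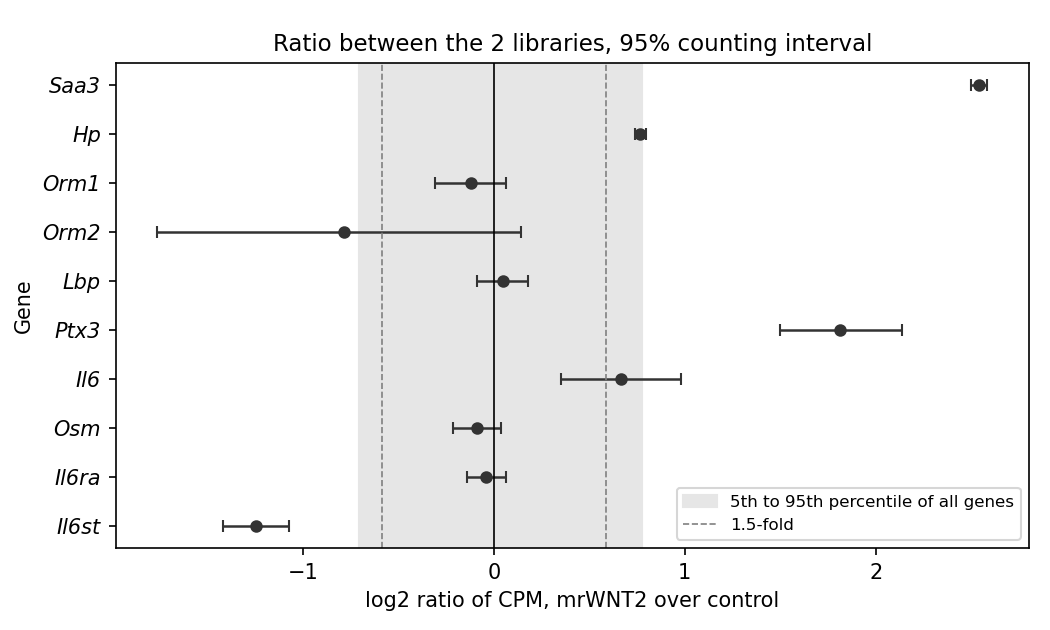
The log2 ratio of CPM (mrWNT2 over control) of each gene with its 95% binomial counting interval, over a grey band from the 5th to the 95th percentile of all genes past the minimum (-0.71 to 0.78). Saa3, Ptx3, Il6st and Orm2 lie outside the band, and the intervals of Orm1, Orm2, Lbp, Osm and Il6ra include 0.

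Levels were compared between genes in FPKM, the deposited scale on which a gene's fragments are divided by its length and by the depth of the library. With the deposited gene lengths the order in control was Hp at 681 FPKM, Saa3 at 144, Orm1 at 49.6 and Osm at 37.4, then Lbp at 14.4 and Il6ra at 14.0, which did not differ beyond counting error. Il6st followed at 6.58 FPKM, Il6 at 4.49, and Ptx3 at 3.05 with Orm2 at 2.83, again within counting error of each other. In mrWNT2 the order began in the same way, with Hp at 1132 FPKM, Saa3 at 821, Orm1 at 44.5 and Osm at 34.3. Lbp (14.5 FPKM) and Il6ra (13.3) again overlapped. Ptx3 now came seventh at 10.5 FPKM, ahead of Il6 at 6.95 and of Il6st, which was ninth at 2.71 and overlapped Orm2 at 1.60. By FPKM Saa3 ranked 254th of all genes in control and 30th in mrWNT2.

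Parts of this order rested on the gene lengths used. For Saa3 the deposited length of 2606 bases covers all its annotated exons, while the transcript that GENCODE M21 numbers first has 555 bases. With the lengths of each gene's first-numbered transcript, a choice made after seeing the data, Saa3 stood at 0.834 of Hp in control and at 2.85 times Hp in mrWNT2, where the deposited lengths gave 0.212 and 0.725 and those of each longest coding transcript, also chosen after seeing the data, 0.210 and 0.720. The order of the pair thus changed only in mrWNT2 and only with the first-numbered transcripts. In control, Lbp stood at 27.6 with either transcript length, beside 14.0 for Il6ra with its longest coding transcript and 36.2 with its first-numbered one. Ptx3 in control stood at 4.30 beside 2.83 for Orm2 with either choice, and Il6st in mrWNT2 at 3.47 and 5.78 beside 1.60 for Orm2. In mrWNT2, Ptx3 stood at 14.8 with either choice, beside Il6 at 7.20 with its longest coding transcript and 14.8 with its first-numbered one. Il6ra in mrWNT2 stood at 13.3 with its longest coding transcript. With its first-numbered one it stood at 34.4, beside 34.3 for Osm. The ratio of each gene between the libraries does not depend on length.

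Other ligands and receptors of the gp130 family were mostly weak. Of 8 other ligand genes 4 were measured, with 1 at least 1.5-fold higher, 0 lower and a median log2 ratio of 0.19. That gene was Ebi3, a subunit of interleukin-27, with 381 counts in control and 698 in mrWNT2, or 28.5 and 54.9 CPM, 1.93-fold higher (1.70 to 2.19). Its partner Il27 had 114 and 152 counts and was 1.40-fold higher (1.09 to 1.8). Lif, the leukaemia inhibitory factor gene that neighbours Osm, had 61 and 50 counts and was 1.16-fold lower with an interval from 0.785 to 1.72. Of 6 other receptor genes 2 were measured, Lifr at 1.57-fold higher (1.16 to 2.13) and Il11ra1 at 1.51-fold higher (1.14 to 2.01), both from at most 125 counts in a library (median log2 ratio 0.62). Il11ra1 was under 1.5-fold with DESeq2 size factors. Osmr, the partner chain for oncostatin M, had 5 counts in control and 2 in mrWNT2, or 0.0312 and 0.0128 FPKM.

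**Figure D3:**
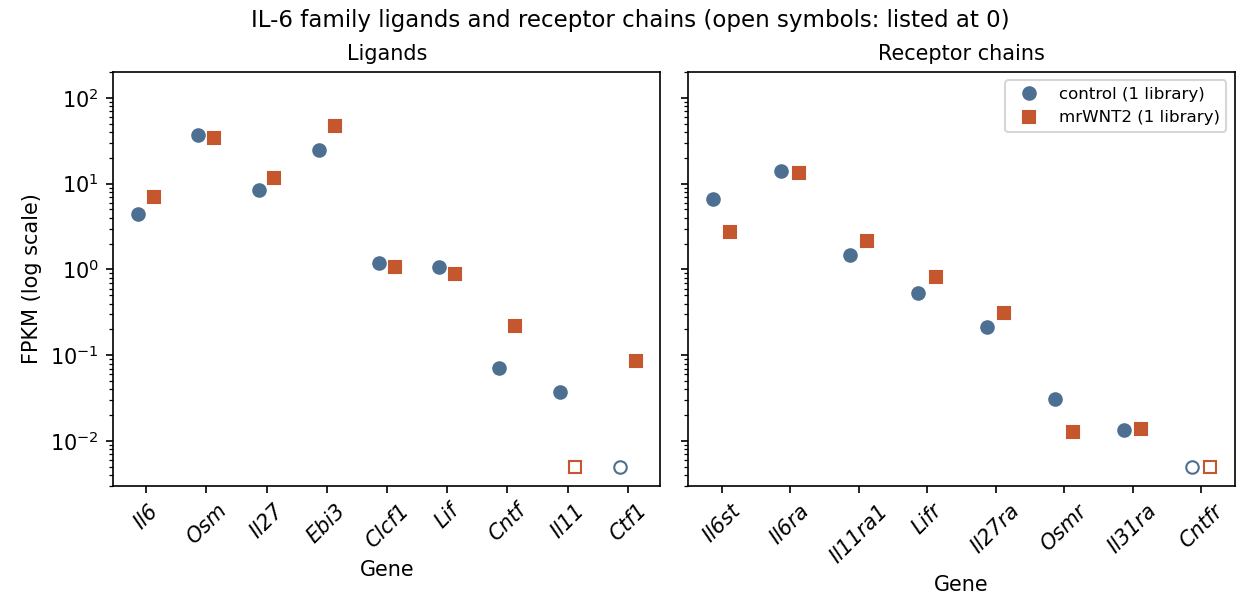
FPKM on a log scale of IL-6 family ligands (left) and gp130 family receptor chains (right) in control (circles) and mrWNT2 (squares), with genes listed at 0 as open symbols at the bottom edge. Osm and Ebi3 are the most abundant ligands and Il6ra the most abundant receptor chain in both libraries, while Osmr lies near 0.01 to 0.03 FPKM.

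Downstream of gp130, the signalling genes differed little while a few response genes were higher. All 16 listed transducers, from the JAK kinases to the adaptors and phosphatases, were within 1.5-fold, with a median log2 ratio of 0.01. Stat3 itself had 2668 and 2637 counts and was 1.04-fold higher (0.985 to 1.10). Of 14 STAT3 feedback and target genes 3 were at least 1.5-fold higher and 0 lower, and the list's median was 0.05. Socs3, the inhibitor that binds gp130, had 695 counts in control and 1789 in mrWNT2 and was 2.71-fold higher (2.48 to 2.96). Bcl3 was 2.24-fold higher (1.93 to 2.62) and Junb 2.11-fold (1.96 to 2.28). All 3 are also known to respond to other pathways, NF-kB among them. Of 3 genes for shedding of the IL-6 receptor, Adam17, which encodes the releasing protease, was 1.53-fold higher (1.44 to 1.62), but under 1.5-fold with DESeq2 size factors. The median of those 3 genes was 0.00.

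Genes that control Il6 transcription and mRNA decay were higher in part. Of 16 listed, 4 were at least 1.5-fold higher and 0 lower, and the median log2 ratio was 0.09. Zc3h12a, which encodes the nuclease Regnase-1 that degrades Il6 mRNA, had 555 and 1304 counts and was 2.47-fold higher (2.24 to 2.73). Nfkbiz, whose product promotes Il6 transcription, was 2.42-fold higher (2.19 to 2.67). The NF-kB subunit genes Relb and Nfkb2 were 2.11-fold and 1.94-fold higher, whereas Rela was 1.04-fold higher with an interval from 0.958 to 1.13. The C/EBP genes lay within 1.5-fold: Cebpb was 1.08-fold higher (1.01 to 1.16) and Cebpd 1.19-fold lower (1.06 to 1.34). Of 8 cytokines listed around the induction of acute-phase genes, 6 were measured, 4 of them higher and 0 lower, with a median of 1.22. The higher ones were Il1a at 19.9-fold, Il1b at 5.91-fold, Il10 at 2.80-fold and Tnf at 1.93-fold. Il10 had only 15 and 40 counts (interval 1.52 to 5.46), and the median lay midway between it and Tnf.

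Several other acute-phase genes were higher, some differed little and many were at or near 0. Of 28 listed, 10 had 0 counts in both libraries, among them Crp, Apcs and the fibrinogen genes Fgb and Fgg, and others had a few counts but stayed under the minimum, such as Serpina3n with 6 and 2. Of the 10 measured, 6 were at least 1.5-fold higher, 4 within 1.5-fold and 0 lower. The median log2 ratio was 1.66, with 3 counts standing for the 0 of 1 gene. Of the 6, Cp, Steap4, Cfb and Saa1 were at 0.823, 0.823, 0 and 0.0748 CPM in control. They passed the minimum only through the mrWNT2 library, so these counts and the median are partly set by the minimum. The remaining genes of the 6 were above it in both libraries, Mt1 at 92.6 CPM in control and Serpina3g at 26.6 CPM. Mt1 was 3.31-fold higher in mrWNT2 (3.10 to 3.53) and Serpina3g 3.00-fold (2.66 to 3.40). Cp, the ceruloplasmin gene, had 11 counts in control and 988 in mrWNT2, and the metalloreductase gene Steap4 had 11 and 248. Cfb, the complement factor B gene, had 0 counts in control and 78 in mrWNT2. It was 27.3-fold higher when 3 counts stood for the control library, with a lower counting bound of 21.7. The 4 within 1.5-fold were Orm3 and the abundant genes Lcn2, C3 and Il1rn, these 3 chosen after their values were seen. Lcn2 was 1.22-fold higher (1.21 to 1.23), C3 1.23-fold (1.22 to 1.25) and Il1rn 1.28-fold (1.25 to 1.32).

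Receptors and partners of these proteins went both ways. Of 11 measured, 4 were higher by 1.5-fold or more and 1 lower, with a median log2 ratio of 0.28. Fpr1, a formyl peptide receptor gene, had 3464 and 7380 counts and was 2.24-fold higher (2.15 to 2.33), while Fpr2, which encodes a receptor for serum amyloid A, was 1.33-fold higher (1.27 to 1.40). Cd14, the acceptor of endotoxin from LBP, had 1543 and 2981 counts and was 2.03-fold higher (1.91 to 2.16), against 1.21-fold lower (1.13 to 1.30) for Tlr4. Tlr2, a receptor gene for bacterial lipoproteins, had 2686 and 5039 counts and was 1.97-fold higher (1.88 to 2.07). Cd163, the scavenger receptor for haptoglobin-haemoglobin complexes, had 2979 and 1087 counts and was 2.61-fold lower (2.43 to 2.80). It is also one of the 7 macrophage markers that were lower, and the part of macrophages in its level was not tested.

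**Figure D4:**
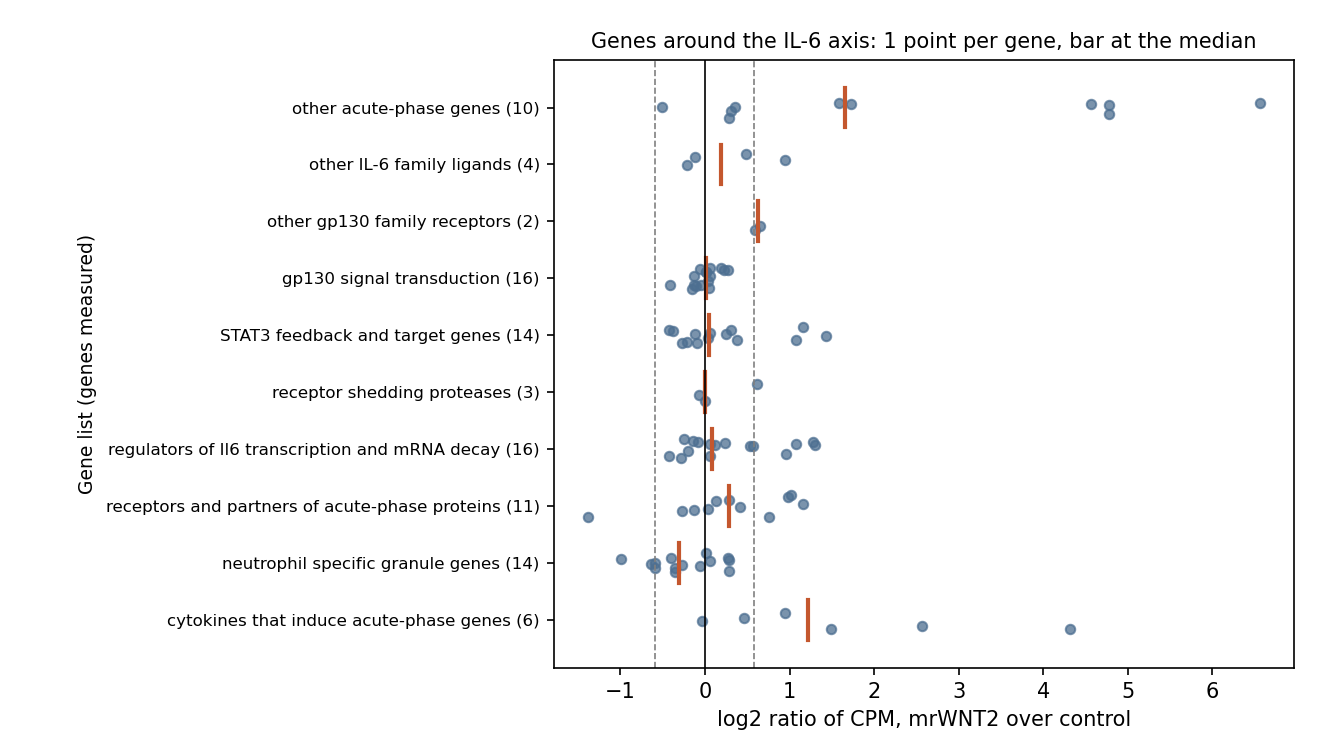
The log2 ratio of CPM (mrWNT2 over control) of each measured gene in the lists around the IL-6 axis, with a bar at each list's median. Dashed lines are at 1.5-fold, and Cfb is drawn with 3 counts standing for its 0 in control. Transducers of gp130 cluster at 0 (median 0.01). The highest medians are those of other acute-phase genes (1.66) and of cytokines listed around their induction (1.22), beside 0.02 for all genes. The 1.66 includes genes, such as Cp and Cfb, that passed the minimum only through the mrWNT2 library.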

How the data were processed

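RNA-seq was carried out on 2 libraries, control and mrWNT2, 1 per group. Per the labels' protocols, TRIzol was used to extract RNA and a NEBNext Ultra kit to make libraries. HISAT2 2.0.5, featureCounts 1.5.0-p3, fastp, CASAVA 1.8, DESeq2 1.20.0 and the GRCm38 build are listed in the submitters' processing notes. The authors deposited raw counts per gene and FPKM. The FPKM ratio between the libraries equalled the ratio of counts scaled by DESeq2 size factors, to within 1.2e-08 in log2 over 10078 genes. Gene length cancels in that ratio, so its scaling was not checked this way. Strand and multiply matched reads are not described in the sources used here.

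Counts were scaled with TMM in edgeR 4.0.16 (R 4.3.3). Ratios carry Clopper-Pearson intervals of 95% (SciPy 1.17.1) and CPM levels Poisson intervals. Ratios between 2 members carry a log odds interval. A count of 0 was replaced by 3 counts per library (0.224 CPM in control, 0.236 in mrWNT2), with no ratio against 3 or fewer. Reads carry no molecular identifiers, so intervals cover counting error only. With 1 library per group there was no test. The ratios and their intervals were tried on simulated Poisson counts with known folds. Those counts held no spread between cultures, so the trial checks the calculation only.

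Transcripts came from GENCODE M21 and were aligned with Biopython 1.88. Members and lists were chosen with earlier results of these data known. Named were all members, and of each list up to 4 genes with the largest ratio at or past 1.5-fold; others named were chosen after their values were seen. A gene first listed is not reported here and enters no list count or median. Alternatives were DESeq2 1.42.0 size factors, library totals, upper-quartile factors, FPKM, other minimums, floors and folds, and log2(CPM + 1).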

Additional observations from a re-analysis of the deposited data

How the results depend on the processing

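No paired analysis was possible because each group had 1 library, and for the same reason no replicate could be left out. The log2 ratios of the 10 members were recomputed 60 times over 6 alternatives, not all of them independent. A 0 replaced by 1 could not change any member, since each had counts in both libraries. The authors' FPKM gave the same ratios as DESeq2 size factors. Of the 60 values, 56 stayed within the main counting interval and 0 changed sign among genes at least 1.5-fold apart. The exceptions came from deep genes with narrow intervals: Saa3 was 2.49 with upper-quartile factors, and Hp was 0.73 with DESeq2 size factors, 0.73 by the authors' FPKM and 0.71 with upper-quartile factors. At a fold of at least 2, 2 members were higher and 1 lower, and with a minimum of 10 CPM 1 was lower, because Orm2 was left out. Over all genes, 2532 were higher and 2675 lower with no expression minimum, 352 and 252 with a minimum of 10 CPM, and 435 and 320 at a fold of at least 2. In the gene lists, DESeq2 size factors left 1 other gp130 family receptor and 0 shedding genes higher, and gave a specific granule median of -0.34. Library totals alone gave -0.29, with 2 granule genes lower. With no minimum, 1 other acute-phase gene and 1 other gp130 receptor were lower, and 2 other IL-6 family ligands were higher. With a minimum of 10 CPM, 0 other receptors were higher and the median of the other ligands was 0.72. At a fold of at least 2, the counts of higher genes were 0 for other ligands, other receptors and shedding genes and 2 for partners, and 0 granule genes were lower. Few counts left wide intervals for Orm2, Saa1 and the weak gp130 family genes. The absence of replicates leaves the spread between cultures unknown for every gene.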
